A study of Mus musculus with 2 samples.

Results

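The mitochondrial carriers of the SLC25 family were examined in whole liver of mice that lack A20 in cells of the Twist2 lineage. Members were all genes whose symbol in the platform annotation begins with Slc25a and a number, which gave 45 genes read by 47 probes among 19318 genes read by 20686 named probes. The Twist2-Cre/A20fl/fl liver, here called CKO, came from mice that carry the Twist2-Cre driver and floxed A20 alleles. The control liver carried Twist2-Cre as well, with no floxed A20 in its label, and both were taken at 24 weeks of age. Each genotype was measured on 1 single-colour microarray, and the sources used here do not say how many animals each RNA came from. The Twist2 promoter drives Cre in mesenchymal lineages, and hepatocytes, which make up most of the liver, are outside them. The gene for A20, Tnfaip3, had a deposited intensity of 38 in the CKO liver and 41 in the control liver, and whether its probe lies in the deleted part is not known, so this value checks nothing.

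SLC25 proteins are nuclear-encoded transporters of the inner mitochondrial membrane, most of which swap a metabolite of the matrix for a metabolite of the cytosol. They carry ADP and ATP, phosphate, citrate, malate, aspartate, ornithine, carnitine esters, coenzyme A, nucleotides and iron. In liver they link the matrix with cytosolic fatty acid synthesis, with the urea cycle, with gluconeogenesis and with the transfer of reducing equivalents by the malate-aspartate shuttle. A few members deviate from this plan, such as Slc25a17 in peroxisomes and Slc25a46 in the outer mitochondrial membrane.

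Across the family, levels in the CKO liver lay close to those in the control liver. Of the 45 carriers, 40 gave signal above background on both arrays, 1 on the control array only and 4 on neither. The log2 ratio of CKO over control, on a background-corrected and quantile-scaled intensity with an offset of 50 (the offset scale), had a median of -0.02 over these 40 carriers, against -0.02 over all 14143 genes above background on both arrays. In the CKO liver 18 carriers were higher and 22 lower (55%), against 42.2% of all genes higher and 57.7% lower; the counts of higher and lower genes in single classes and lists are to be read against these shares. The middle of the family, between its quartiles, spanned -0.10 to 0.08, against -0.08 to 0.05 for all genes, and the extremes were -0.40 and 0.77. Slc25a25 and Slc25a47 were at least 1.5-fold higher in the CKO liver, where 1.7% of all genes were, and 0 carriers were at least 1.5-fold lower, where 0.417% of all genes were. At 2-fold on this scale 0 carriers were higher and 0 lower, against 0.636% and 0.0778% of all genes. Since each genotype has 1 array, no test and no error between animals could be given, and array and genotype cannot be told apart.

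A few facts bear on how the values read. The offset shrinks the ratios of dim genes, so the deposited intensities, which are linear and carry no offset, stand beside them. A probe's intensity depends on its sequence, so intensities are set side by side only between the livers and never between carriers. The spread serves as a guide to size. It is the distance from the centre to the edge of the central 68% of ratios among genes of similar level. Over 20 level classes it ranged from 0.03, in the dimmest, to 0.22. By this measure 16 of the 40 carriers (40%) had a ratio beyond the spread at their level, against 32.8% of all genes. In whole tissue, fewer cells of a type and less RNA per cell cannot be told apart. Hepatocyte markers summed to a deposited intensity of 147048 in the CKO liver and 156660 in the control liver, with 9 of 9 measured markers above background. On the offset scale 5 of these were higher in the CKO liver, 3 were lower and Fgb was at 0.00, with a median ratio of 0.03. Macrophage markers summed to 8406 in the CKO liver and 2458 in the control liver, and all 9 that were above background on both arrays were higher; Adgre1 alone was above background on the CKO array only. The 8 endothelial markers summed to 854 and 1284 (2 higher and 5 lower of 7 above background on both arrays), the 7 T and NK cell markers to 200 and 36 (4 of the 4 above background on both arrays were higher), and the 4 cholangiocyte markers to 79 and 118 (4 of 4 lower) in the CKO and control livers. The 8 stellate and fibroblast markers, from the lineage the driver targets, were above background on both arrays, with 6 higher and 2 lower. Their median ratio was 0.06 on the offset scale, 0.43 by plain subtraction and 0.45 in the deposited values. Lrat, Des, Reln and Col1a1 among them were close to background, where the offset shrinks ratios. The 8 markers summed to 1331 in the CKO liver and 1616 in the control liver, of which Dcn alone made 918 and 1387. Col1a2 had 114 and 59 and Col3a1 213 and 91.5 in the CKO and control livers. The part of these cell types in the carriers' ratios was not tested. Erythroid markers (Alas2, Klf1, Epb42 and Slc4a1 of a list of 8) summed to 66 in each liver. Of 6 adipocyte markers 4 (Plin1, Cidec, Cidea and Ucp1) were above background on both arrays, and the list summed to 26 in the CKO and 33 in the control liver, with the defining genes Adipoq and Lep above background on neither. Of 6 skeletal muscle markers 2 (Ckm and Mylpf) were above background on both arrays, and the list summed to 17 in the CKO and 20 in the control liver, with Acta1, Myh1, Myh4 and Tnnt3 above background on neither.

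**Figure D1:**
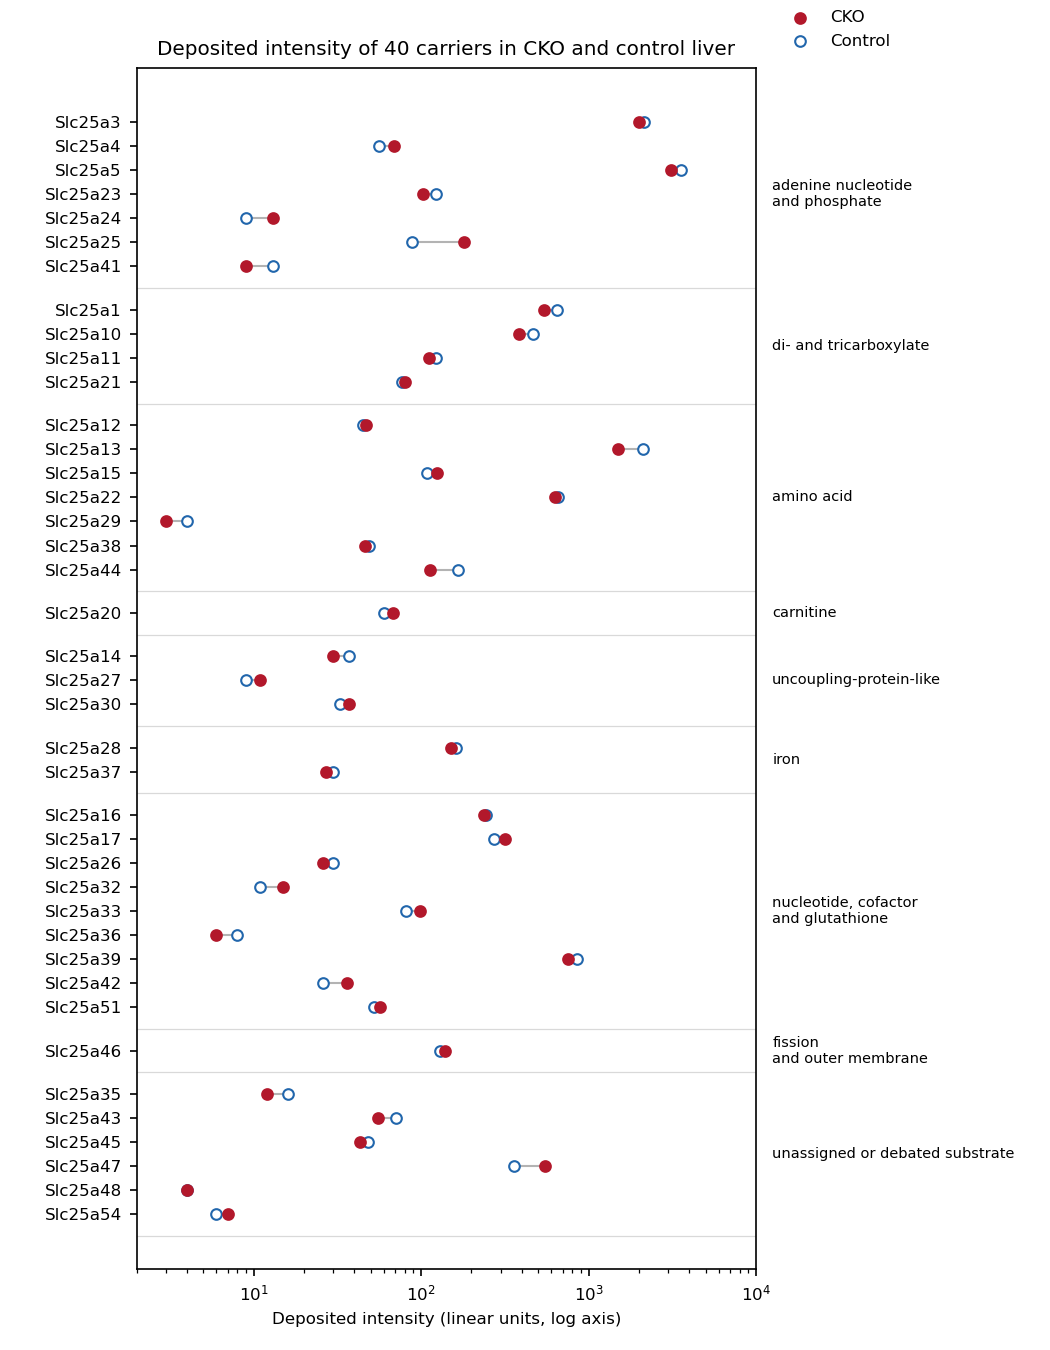
Deposited intensity (linear units on a log axis) of the 40 carriers above background on both arrays, grouped by substrate, with the CKO liver as filled and the control liver as open points, 1 array each; Slc25a51 shows the mean of its probes. The points of most carriers nearly touch, and Slc25a25, at 181 in the CKO liver and 88 in the control liver, has the widest gap among carriers above an intensity of 20.

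Among the carriers of adenine nucleotides and phosphate, Slc25a25 stood furthest from equality, and the main ADP/ATP and phosphate carriers were near equal. Slc25a25, a calcium-regulated exchanger of ATP-Mg for phosphate that sets the size of the matrix adenine nucleotide pool, had a deposited intensity of 181 in the CKO liver and 88 in the control liver. Its log2 level was 8.08 in the CKO and 7.30 in the control liver, a ratio of 0.77 or 1.71-fold, and the deposited values differed 2.06-fold. It ranked 149 from the highest among all 14143 genes, with a spread of 0.19 at its level. The other exchangers of this kind did not share the size of this difference. Slc25a23 was lower in the CKO liver, at 103 against 123 (ratio -0.18), and both Slc25a24 (13 in CKO, 9 in control, ratio 0.12) and Slc25a41 (9 in CKO, 13 in control, ratio -0.10) were dim. The phosphate carrier Slc25a3, which feeds ATP synthase, had 2013 in the CKO and 2140 in the control liver (ratio -0.02). Of the ADP/ATP exchangers, Slc25a5 had 3120 in the CKO and 3552 in the control liver (ratio -0.07), while Slc25a4, the main form of heart and muscle, had 69 and 56 (ratio 0.18). Slc25a31, a germ cell form, was above background on neither array. The list as a whole had 3 of 7 members higher, 4 lower and a median of -0.02. Genes of ATP synthase, which works on the nucleotides and phosphate these carriers bring in, had a median of -0.11 with 13 of 14 lower on the offset scale. None of them was past 1.5-fold, where 1.7% of all genes were higher and 0.417% lower by that much. Atp5g1 (-0.22), Atp5j (-0.21), Atp5j2 (-0.13) and Atp5e (-0.13) had the largest ratios.

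Slc25a47 was the other carrier past 1.5-fold. This carrier is expressed mainly in hepatocytes, and its substrate is debated. It had a deposited intensity of 550 in the CKO liver and 358 in the control liver, with log2 levels of 9.49 and 8.88, a ratio of 0.61 or 1.52-fold. That ratio ranked 223 from the highest of all genes, against a spread of 0.22 at its level, and lay just beyond the 1.5-fold line. The deposited values of Slc25a47 differed 1.54-fold. Among the 28 carriers whose level reached the median of all genes, 2 were at least 1.5-fold higher in the deposited values of the CKO liver and 0 at least 1.5-fold lower, where 4.86% and 2.46% of all genes of such levels were. Just short of the lower line was Slc25a44, whose deposited value in the CKO liver was 0.68 times that in the control liver.

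The windows around the annotated starts of these 2 genes are shown because they carry the carriers with the largest differences. They were taken from RefSeq's table of promoters (GRCm38.p6), which holds a window of 250 bases before to 50 bases after the start for 35 of the 45 carriers, and capitals mark a cAMP response element, TGACGTCA. The Slc25a25 window lies at chr2:32424017-32424316 on the minus strand and is the most downstream of 3 annotated starts; the Slc25a47 window lies at chr12:108850879-108851178 on the plus strand.
Slc25a25: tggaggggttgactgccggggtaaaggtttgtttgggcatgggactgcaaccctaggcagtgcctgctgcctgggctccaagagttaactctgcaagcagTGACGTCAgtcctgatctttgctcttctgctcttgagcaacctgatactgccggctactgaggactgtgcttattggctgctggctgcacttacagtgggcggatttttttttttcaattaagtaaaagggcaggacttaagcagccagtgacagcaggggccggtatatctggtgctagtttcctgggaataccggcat
Slc25a47: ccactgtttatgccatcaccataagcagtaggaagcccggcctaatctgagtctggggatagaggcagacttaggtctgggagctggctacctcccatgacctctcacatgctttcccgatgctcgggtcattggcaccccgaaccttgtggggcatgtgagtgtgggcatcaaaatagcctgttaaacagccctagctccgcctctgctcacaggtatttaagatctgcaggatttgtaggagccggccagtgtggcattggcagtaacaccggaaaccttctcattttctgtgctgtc
Both strands were searched for 3 motifs, chosen with the ratios known. The cAMP response element begins 150 bases before the start of Slc25a25 in this window and is absent as these letters from the other 2 starts of the gene and from the Slc25a47 window. The same letters stand in 1.79% of all 32817 windows and, among carriers, in that of Slc25a36 as well, which had a deposited intensity of 6 in the CKO liver and 8 in the control liver. The interferon-gamma activated site, TTCNNNGAA, was found in 8.29% of all windows and, among carriers, for Slc25a36 and Slc25a54. A consensus NF-kB site was found in 8.46% of all windows and for Slc25a1, Slc25a10, Slc25a17 and Slc25a48. The windows of Slc25a25 and Slc25a47 held neither of these. Which start the Slc25a25 probe's transcript uses was not examined, and a match of letters does not show a binding site.

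**Figure D2:**
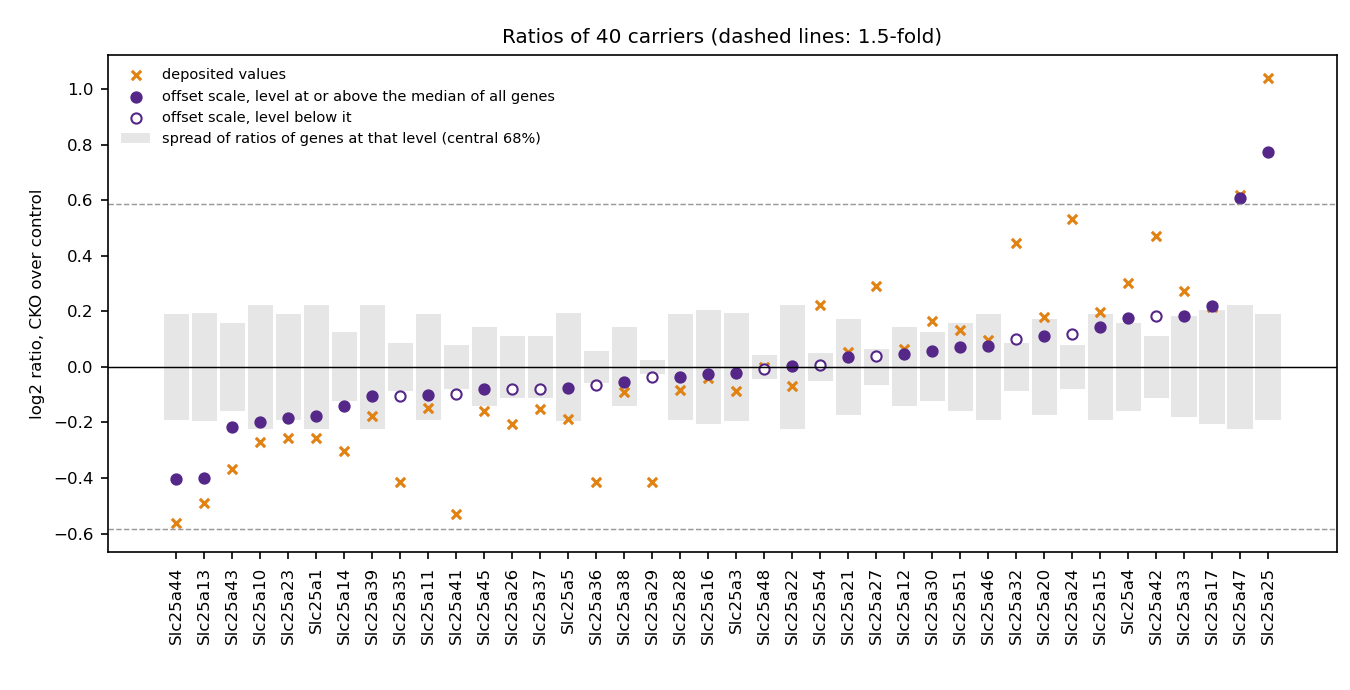
Log2 ratio of CKO over control for each of the 40 carriers, ordered by the offset scale (circles, filled where the level reaches the median of all genes), with the ratio of the deposited values (crosses), the spread of genes at that level (grey band) and 1.5-fold (dashed lines). Slc25a25 at 0.77 and Slc25a47 at 0.61 lie above the upper line, and Slc25a44 and Slc25a13, both at -0.40, have the lowest ratios.

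Carriers of amino acids held the lowest ratios of the family beside members that were near equal. Slc25a44, which brings branched-chain amino acids into mitochondria, had a deposited intensity of 113 in the CKO liver and 167 in the control liver. Its log2 levels were 7.56 in the CKO and 7.96 in the control liver, a ratio of -0.40, or 0.76-fold. Slc25a13, known as citrin, is the main aspartate-glutamate exchanger of liver and supplies cytosolic aspartate to the urea cycle and the malate-aspartate shuttle. It had 1502 in the CKO liver and 2111 in the control liver, with log2 levels of 10.88 and 11.28 and a ratio of -0.40, or 0.76-fold. These ratios ranked 187 and 190 from the lowest of all genes, with spreads of 0.19 at both levels. Slc25a12, the aspartate-glutamate exchanger of muscle and brain, had 47 in the CKO and 45 in the control liver (ratio 0.05). The ornithine carrier Slc25a15, which supplies the matrix part of the urea cycle, was slightly higher, at 125 in the CKO and 109 in the control liver (ratio 0.14). The glutamate carrier Slc25a22 had 629 and 660 (ratio 0.00) and the glycine carrier of haem synthesis Slc25a38 had 46 and 49 (ratio -0.05) in the CKO and control livers. The basic amino acid carrier Slc25a29 was close to background, at 3 in the CKO and 4 in the control liver, and Slc25a2 and Slc25a18 were above background on neither array. In all, 3 of 7 amino acid carriers were higher and 4 lower, with a median of -0.04.

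The enzymes that work beside citrin were unevenly placed. Of the 6 urea cycle genes 4 were lower on the offset scale, with a median of -0.25. None was past 1.5-fold, where 1.7% of all genes were higher and 0.417% lower by that much. Arginase Arg1 had a ratio of -0.39 (5738 in CKO, 8159 in control), the activator-forming enzyme Nags -0.31, Asl -0.27 and Ass1 -0.22. Cps1 (0.03, with 133 in CKO and 129 in control) and Otc (0.04) were near equal. All 4 enzymes of the malate-aspartate shuttle were lower by small amounts on the offset scale. Their ratios were -0.13 for Got1, -0.07 for Mdh2, -0.04 for Got2 and -0.04 for Mdh1.

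Carriers of di- and tricarboxylates differed by small amounts, between -0.20 and 0.04. Slc25a10, which exchanges malate or succinate for phosphate, had a deposited intensity of 386 in the CKO liver and 466 in the control liver, log2 levels of 9.03 and 9.23 and a ratio of -0.20. The citrate carrier Slc25a1, which exports the carbon of fatty acid synthesis, had 544 in the CKO and 649 in the control liver (ratio -0.18). Slc25a11, the oxoglutarate-malate exchanger, had 111 and 123 (ratio -0.10), and the oxodicarboxylate carrier Slc25a21 had 80 and 77 (ratio 0.04) in the CKO and control livers. Of these 4 carriers 3 were lower, too few to set apart from the 57.7% of all genes, with a median of -0.14, and the ratios of Slc25a10 and Slc25a1 lay within the spread of 0.22 at their levels. The related list holds genes that form or use citrate and malate or that make fatty acids from the exported carbon. Of these, 7 of 7 were lower on the offset scale, with a median of -0.21. They include Mdh1 and Mdh2, which are also counted in the malate-aspartate list. In this list 2 genes were at least 1.5-fold lower, where 0.417% of all genes were. These 2 were fatty acid synthase Fasn (-0.95, 351 in CKO and 744 in control) and malic enzyme Me1 (-0.79). Acaca (-0.47) and citrate synthase Cs (-0.21) followed. The differences of the carriers were smaller than those of Fasn, Me1 and Acaca.

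The carnitine-acylcarnitine carrier Slc25a20, through which long-chain fatty acids reach the matrix for oxidation, had a deposited intensity of 68 in the CKO liver and 60 in the control liver (ratio 0.11). In a list of carnitine enzymes and transporters 4 of 5 genes were higher on the offset scale, with a median of 0.34. One of the 4, Cpt2, was near equal (ratio 0.02, 967 in CKO and 997 in control). On that scale 0 of 5 reached 1.5-fold, where 1.7% of all genes were higher and 0.417% lower by that much. Cpt1a, which forms acylcarnitines at the outer membrane, had 1193 in the CKO and 910 in the control liver (ratio 0.44), the peroxisomal Crot had a ratio of 0.34, the plasma membrane carnitine transporter Slc22a5 0.34 (45 in CKO, 26 in control) and Crat -0.11.

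**Figure D3:**
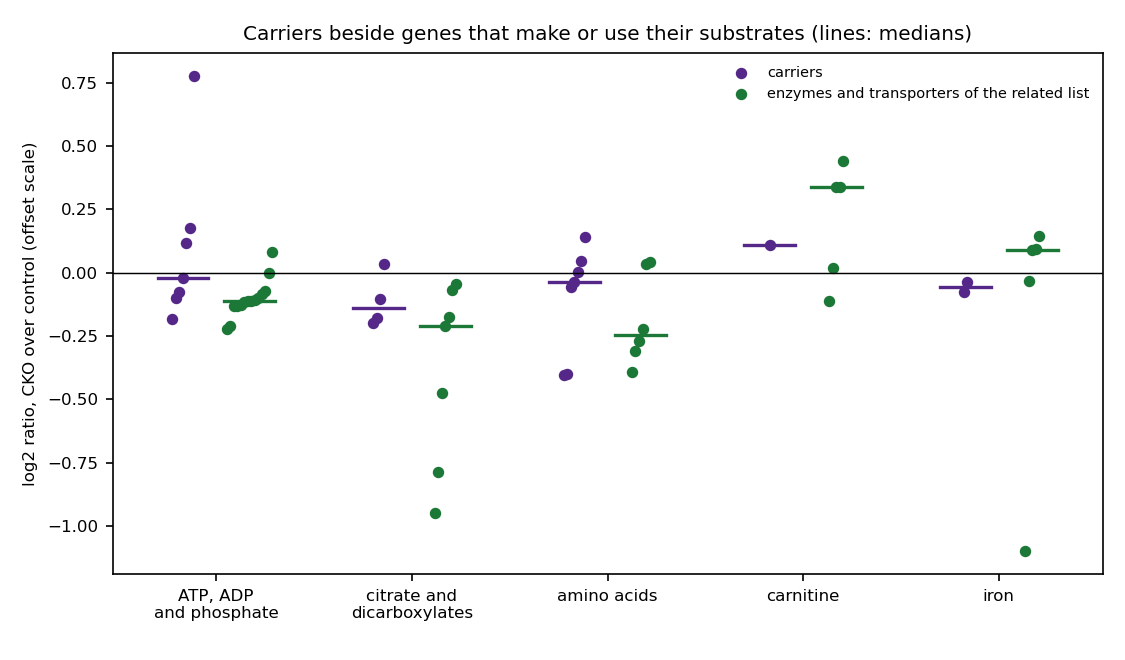
Log2 ratio of CKO over control (offset scale) for carriers (left of each pair) and genes of a related list (right of each pair). Each point is 1 gene above background on both arrays and each line a median. Some genes of the related lists, such as Fasn, Acaca, Alas1 and Alas2, do not act on the carried substrate itself. The amino acid carriers are set beside the urea cycle genes. Medians of carriers lie between -0.14 and 0.11, and Slc25a25 at 0.77 is the highest point shown.

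Carriers of nucleotides, cofactors and glutathione were spread over both sides. Of these 9 carriers 5 were higher, with a median of 0.07 that is the value of Slc25a51, the mean of probes of opposite sign; with the brighter probe of that gene 4 were higher and the median was -0.02. The peroxisomal carrier of coenzyme A, FAD and NAD, Slc25a17, had 318 in the CKO liver and 274 in the control liver, with log2 levels of 8.77 and 8.55 and a ratio of 0.22, against a spread of 0.20 at its level. Slc25a42, which imports coenzyme A into mitochondria, had 36 in the CKO and 26 in the control liver (log2 levels 6.58 and 6.40, ratio 0.18). Slc25a16, also linked to coenzyme A, had 238 and 245 (ratio -0.02) in the CKO and control livers. The pyrimidine nucleotide carrier Slc25a33 had 98 in the CKO and 81 in the control liver (log2 levels 7.41 and 7.23, ratio 0.18). Its relative Slc25a36 was dim (ratio -0.07). The glutathione carrier Slc25a39 had 759 in the CKO and 857 in the control liver (ratio -0.11), and its close relative Slc25a40 was above background on neither array. The NAD carrier Slc25a51 was read by 2 probes, with 59 and 55 in the CKO liver against 60 and 45 in the control liver, and the probes' ratios of -0.02 and 0.16 differed in sign. The S-adenosylmethionine carrier Slc25a26 (26 in CKO, 30 in control, ratio -0.08) and the folate carrier Slc25a32 (15 in CKO, 11 in control, ratio 0.10) were dim.

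The mitoferrins, which import iron for haem and iron-sulphur clusters, were near equal. Slc25a28, the broadly expressed form, had 152 in the CKO liver and 161 in the control liver (ratio -0.04), and Slc25a37, the erythroid form, had 27 and 30 (ratio -0.08). Of 5 genes that make haem or iron-sulphur clusters 3 were higher and 2 lower. Alas1, the first enzyme of haem synthesis in liver, was the gene that stood apart, at 1039 in the CKO and 2396 in the control liver (ratio -1.10), while ferrochelatase Fech was at 0.14, Alas2 at 0.10 and Nfs1 at 0.09. The difference of Alas1 was thus not shared by the iron carriers or by Slc25a38, which supplies glycine to the same pathway.

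The remaining carriers were near equal or dim, apart from Slc25a43 and Slc25a14. Slc25a46, an outer membrane protein of mitochondrial dynamics, had 139 in the CKO and 130 in the control liver (ratio 0.08). Among the relatives of the uncoupling proteins, Slc25a14 had 30 in the CKO and 37 in the control liver. Its ratio of -0.14 lay beyond the spread of 0.12 at its level. In the CKO and control livers Slc25a30 had 37 and 33 (ratio 0.06) and Slc25a27 had 11 and 9 (ratio 0.04). Of the carriers with no settled substrate, Slc25a43 had 55 in the CKO liver and 71 in the control liver (log2 levels 6.89 and 7.11, ratio -0.22), beyond the spread of 0.16 at its level. Slc25a45 had a ratio of -0.08 (43 in CKO, 48 in control) and Slc25a35 one of -0.10 (12 in CKO, 16 in control). Slc25a48 (4 in each liver) and Slc25a54 (7 in CKO, 6 in control) were close to background, with ratios of -0.01 and 0.01. Slc25a53 was above background on the control array only and its bound came to less than 1, so no fold is given; its listed values were 2 in the CKO and 3 in the control liver. Family members under other symbols were likewise near equal or dim. Mtch1 had 430 in the CKO and 474 in the control liver (ratio -0.08), Ucp3 11 and 12 (ratio -0.03) and Ucp1 3 and 6 (ratio -0.07), while Mtch2 was listed at 3 in the control liver only and was above background on that array only.

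Close relatives within the family differed in their ratios. That of Slc25a25 exceeded those of Slc25a23, Slc25a24 and Slc25a41, and Slc25a13 was lower in the CKO liver while Slc25a12 was not. Carriers that neighbour each other on a chromosome, with 0 protein-coding genes between them in RefSeq, form 4 pairs. On chromosome 12 Slc25a47 (ratio 0.61) lies beside Slc25a29 (-0.04), and on chromosome 17 Slc25a23 (-0.18) beside Slc25a41 (-0.10). On chromosome 3 Slc25a24 (0.12) lies beside Slc25a54 (0.01), and on the X chromosome Slc25a5 (-0.07) beside Slc25a43 (-0.22). The large ratio of Slc25a47 was therefore not seen in its neighbour, whose probe lay close to background.

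Genes for the import and the upkeep of mitochondria also lay near equality. The import machinery that brings carriers to the inner membrane had 4 of 9 genes higher, 5 lower and a median of -0.05, led by the small chaperone Timm10b (-0.30, 241 in CKO and 312 in control), the receptors Tomm22 (0.23) and Tomm20 (0.15), and Timm9 (-0.09). Inner membrane transporters of other families had 4 of 8 higher, 4 lower and a median of 0.00. The serine transporter Sfxn1 was lowest, at 1119 in the CKO and 1456 in the control liver (ratio -0.31), and Abcb8 was highest (0.10), with Letm1 at -0.06 and Sfxn3 at 0.03. Regulators of mitochondrial biogenesis had 4 of 9 higher, 5 lower and a median of -0.02, with Esrra (-0.34), Nrf1 (0.21), Tfam (0.15) and the coactivator Ppargc1a (0.12) as the largest. None of the genes in these 3 lists was past 1.5-fold. Of all genes 1.7% were higher and 0.417% lower by that much, so in lists this short such a count says little.

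The handling of background decided some of the signs. Against the local background column of the scanner files, 10 of the 40 carriers had the opposite sign, Slc25a13 among them at 2.27 and Slc25a44 at 0.30, and Slc25a10 was at -1.31 and Slc25a1 at -1.54. That column held a median of 76.8% of the spot's own signal over the carriers on the CKO array and 80.7% on the control array. For Slc25a13 it held 43.6% on the CKO array and 95.9% on the control array. Under the other settings (offsets of 50 and 16, plain subtraction, median scaling, cyclic loess and the deposited values), Slc25a25 lay between 0.77 and 1.05, Slc25a47 between 0.61 and 0.67, Slc25a13 between -0.49 and -0.37 and Slc25a44 between -0.56 and -0.38. With the local column Slc25a25 was at 0.60 and Slc25a47, at 0.23, was below 1.5-fold. Signs in the related lists depended on that column as well. Of the malate-aspartate enzymes Mdh1 (2.98), Got2 (2.34) and Mdh2 (0.68) were then higher, and Got1 (-0.24) was lower. Cs (0.97) and Acly (0.16) were also higher, while Fasn (-1.67), Me1 (-0.41) and Acaca (-0.30) stayed lower. Of the carnitine genes Cpt1a (-0.15) and Cpt2 (-0.02) became lower, while Crot (3.80) and Slc22a5 (0.23) stayed higher. Of the urea cycle genes Asl (2.23) became higher and Cps1 (-0.18) lower, while Arg1, Nags and Ass1 stayed lower and Otc higher. Of the ATP synthase genes Atp5g2 (2.70), Atp5k (2.59), Atp5g1 (0.75), Atp5g3 (0.48) and Atp5o (0.13) became higher and Atp5c1 (-0.08) lower. Atp5a1 was at 0.00 and the others stayed lower. In the import list Tomm20 (-1.23) and Tomm22 (-0.12) became lower and Timm10 (0.31) higher. Signs also changed among the biogenesis and haem genes.

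**Figure D4:**
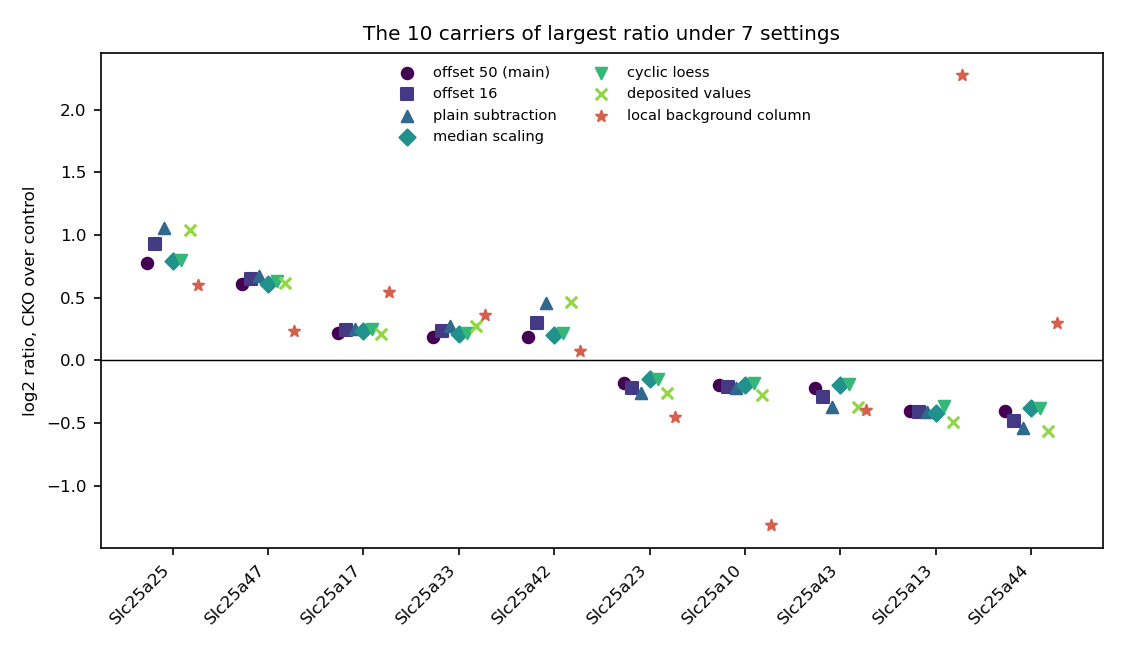
Log2 ratio of CKO over control for the 10 carriers of largest absolute ratio under 7 settings, each symbol 1 setting and the stars the local background column. Symbols other than the stars keep their side of 0 for each carrier, and the star of Slc25a13 lies at 2.27.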

How the data were processed

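Total RNA of CKO and of control liver, 1 array each, was amplified to amino allyl aRNA and coupled to Cy5, per the labels' protocols. Per the file headers, the scanner output gives a median intensity for every spot and another for the background around it. The deposited value table holds linear intensity. Its making is not stated; set against the scanner values it is the spot intensity minus about the blank spots' mean, times 0.825 (CKO) or 0.859 (control), with a median of 25 in both columns and no centring on genes.

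Spot intensities were corrected by normexp with an offset of 50 (limma 3.58.1, R 4.3.3) against the mean of 384 blank spots (69.3 with SD 1.45 on the CKO array, 67.2 with SD 1.17 on the control array), then quantile-scaled and put on the log2 scale. Control spots and the 4 flagged control-array spots were left out. A probe was above background when it exceeded the blank mean plus 2 SD, which 73.6% of gene spots did on the CKO array and 73.8% on the control array, and a gene if 1 of its probes or more did. Values of probes of 1 gene were averaged; such probes differed by 0.13 (SD of log2 ratio, 716 genes). The log2 intensities of positive control spots had an SD of 0.14 (CKO) and 0.19 (control). With 1 array per genotype no test was run; the number of arrays limits the precision. Probes were named from the platform annotation, and all 45 carriers matched RefSeq (GRCm38.p6) by Entrez ID, used for names and neighbours only.

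The members, the lists and the handling of background were chosen with earlier results of these data known, and no list is independent evidence of its direction. Named in full were the 10 carriers with the largest absolute ratio among those above background on both arrays, plus any carrier of at least median level past 1.5-fold in the deposited values (no further one was), and up to 4 genes of each related list; other carriers are given by intensity and ratio. Other related genes and cell type markers named beside these fall outside the 4 and were named after their values were seen. These steps were also run on simulated data in which chosen genes differed by known folds. For those genes the offset scale was checked for direction only, and plain subtraction for size. The genes given a fold were all well above the blank mean, so recovery for dim genes was not checked. The simulation had no separate local background, so it did not test the local background column. Alternatives were an offset of 16, plain subtraction of the blank mean, the local background column, median scaling, cyclic loess, the deposited values, no filter on dim probes, only genes at or above the median level, and the brightest probe of a gene.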

Additional observations from a re-analysis of the deposited data

How the results depend on the processing

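The median ratio over the carriers, -0.02 on the offset scale, ranged from -0.08 (deposited values) to 0.01 (cyclic loess, where its sign changed). These moves were smaller than the spread between probes of 1 gene, which is a loose limit for a median over 40 carriers. The counts of carriers higher and lower stayed within 1.5 times of the reported ones. Plain subtraction put 3 carriers, Slc25a24 added, at least 1.5-fold higher. At least 1.5-fold lower were 3 carriers against the local background column, in place of 0. At least 2-fold higher was 1 carrier, in place of 0, under each of plain subtraction, the deposited table and the local column, and at least 2-fold lower were 2 carriers against the local column, in place of 0. The carrier past 2-fold was Slc25a25 in the first 2 settings and Slc25a13 in the last. Signs of single carriers differed from the offset scale in 10 carriers with the local column, in Slc25a16 and Slc25a22 with median scaling, in Slc25a3 and Slc25a16 with cyclic loess, in Slc25a22 in the deposited values and in Slc25a51 with the brightest probe of a gene (-0.02 in place of 0.07, giving 17 carriers higher and 23 lower). The offset and plain subtraction kept the sign of all 40. Ratios moved by more than the spread between probes of 1 gene in 23 carriers with the local column, 13 in the deposited values, 11 with plain subtraction and 1 with the offset of 16. The cause was not tested, except that for dim carriers the offset shrinks ratios by its construction. Signal over background limits the 12 carriers below the median level, whose offset-scale ratios lay between -0.10 and 0.18. No paired analysis was possible because each genotype has 1 array.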
